A study of Canis lupus familiaris with 14 samples.

Results

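The 10 canine lymphomas of this series fell into 2 expression classes, E-J with 6 dogs and K-N with 4, and the comparison between these classes is described here gene by gene. The 10 arrays were all the lymphoma arrays among 14, and the other 4 came from normal lymph nodes. The class letters were those that the study gave its samples after clustering array and RNA-Seq profiles of the same RNA, and each letter was matched to an array by the dog identifier in the sample title. E-J held FS21, NE41, NE42, RB03 and RB16, labelled B-cell lymphoma, and FS22, labelled T-cell lymphoma. K-N held RB07 and RB10, labelled B-cell lymphoma, and FS25 and NE45, labelled T-cell lymphoma. The label rests on staining of the aspirated cells for CD79a and CD3. All 10 were fine needle aspirates, cells drawn from an enlarged node with a thin needle, from privately owned dogs with natural disease, taken before the dose of a phosphatidylinositol 3-kinase (PI3K) inhibitor that the trial tested. Some of the dogs had been treated earlier, and this was not analysed here. The E-J dogs were a Labrador Retriever, a Pointer, a Chesapeake Bay Retriever, a Beagle, a Boxer/Pitt Bull mix and a Pitt Bull/Labrador mix. The K-N dogs were 3 Boxers and a Golden Retriever. Each of the 3 clinics, marked FS, NE and RB in the identifiers, contributed 2 E-J dogs, and they contributed 1, 1 and 2 K-N dogs. The normal nodes came from colony Beagles, and 3 of them, 1 node per dog, are given for context only. Each dog was measured on 1 array, so the spread within a class is the spread between dogs, and an aspirate is a mixture in which fewer cells of a type and less RNA per cell cannot be told apart.

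Canine lymphoma is usually a disease of B cells, which carry a surface antibody as their antigen receptor, and less often of T cells, which carry a receptor held by the CD3 chains. A B cell reads its receptor through CD79A and CD79B and the kinases LYN, SYK and BTK, and a T cell through CD3 and the kinases LCK and ZAP70. Cells arrested at a stage of a lineage keep much of its expression programme, so that a lymphoma's profile is commonly read against the programmes of normal B cells, T cells and the germinal centre, the site in a node where B cells mutate and are selected.

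Because the clustering that made the classes used these same profiles, the difference between classes was not tested. It is given as the E-J mean minus the K-N mean of log2 signals with its standard error (SE), and a gene is counted as separated when no array of one class overlapped the other and the means differed at least 2-fold. Of 15115 genes on the array, 8567 reached a signal of 100 on at least 3 of the 10 lymphoma arrays and were compared. Among these, 393 (4.59%) were separated and higher in E-J and 316 (3.69%) were separated and higher in K-N, 8.28% in all. With these included, 989 genes (11.5%) did not overlap at any size of difference. The median difference over all compared genes was 0.06 on the log2 scale, and the median size of a difference in either direction was 0.47.

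Separation went with the size of the difference. Of the genes at least 2-fold higher in E-J, 393 of 952 did not overlap between the classes, against 157 of 257 at 4-fold (1.83% of all genes), 78 of 103 at 8-fold and 30 of 33 at 16-fold. In the other direction these counts were 316 of 854, 180 of 306 (2.1% of all genes), 92 of 121 and 46 of 53. All 10 genes at least 32-fold higher in E-J and all 14 at least 32-fold higher in K-N were separated. Of the separated genes, 64 of the 393 and 70 of the 316 were below a signal of 100 on every array of the lower class. Where all probe sets of such a gene were below 100 there, the fold with every signal raised to 100 is given as a lower bound ("at least"). Where the gene average was below 100 but a probe set was not, the differences of its probe sets are given instead. Where only some arrays of the lower class were below 100, the measured difference is given, and its size rests partly on those values.

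**Figure D1:**
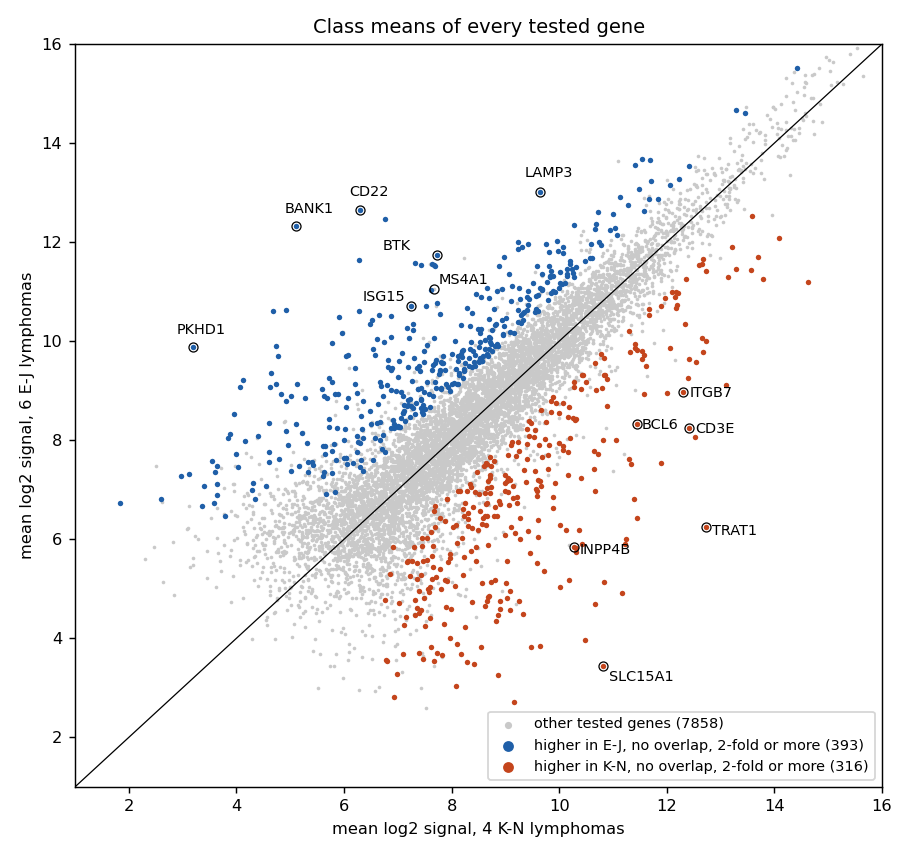
Mean log2 signal of each of the 8567 compared genes in the 6 E-J lymphomas (vertical axis) against the 4 K-N lymphomas (horizontal axis), with equality on the diagonal. Blue points are the 393 separated genes higher in E-J, red points the 316 higher in K-N, and grey points the others, and MS4A1 lies among the blue points but overlapped between the classes.

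The diagnosis on the label and the class did not coincide. FS22, labelled T-cell, read 10.09 for CD79A and 12.44 for CD22, a B-cell surface receptor, both inside the range of the 5 E-J dogs labelled B-cell (9.29 to 11.52 and 11.81 to 13.91). RB07 and RB10, labelled B-cell, read 12.11 and 12.54 for CD3E, beside 12.48 and 12.56 in the T-cell labelled FS25 and NE45. All 4 K-N values of CD3E were above the highest E-J value of 9.29. Results are therefore also given for the 5 B-cell labelled E-J dogs against the 2 T-cell labelled K-N dogs, where label and class point the same way. That comparison separated 656 genes higher in E-J and 502 higher in K-N, of 7867 compared, and fewer arrays also make non-overlap easier to reach. Between the 7 B-cell labelled dogs alone, 5 of E-J and 2 of K-N, 587 and 386 of 7876 genes were separated.

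Each lymphoma was also placed by the genes that separated the other 9 arrays. The placed array had itself taken part in the clustering that gave its class. Nearness to its own class was thus partly built in, and the shares are descriptive and no test of the classes. The 4 K-N arrays lay nearer the K-N mean for 72.5% (RB07), 75.9% (RB10), 79.4% (NE45) and 82.8% (FS25) of those genes. For the E-J arrays the share nearer their own class ran from 82.6% (RB16) to 90.5% (FS22), and the T-cell labelled FS22 had the highest share of all 10. Over all compared genes the root mean square log2 distance between 2 arrays was 1.07 to 1.28 within E-J, 1.21 to 1.43 within K-N and 1.38 to 1.66 between the classes. Within K-N the SD of a gene exceeded that within E-J for 56.0% of genes (median SD 0.56 and 0.52). The 10 arrays had similar signal distributions, with 47.2% to 55.7% of probe sets at a signal of 100 or more. The ratio of the GAPDH 3′ to 5′ probe set signals, a sign of RNA quality, was 3.76 to 8.60 in E-J and 5.53 to 8.94 in K-N. Only NE42, at 8.60, brought the ranges into overlap. The other E-J arrays read 3.76 to 5.36, below every K-N array, and the class medians were 5.04 and 7.10. This ratio thus largely went with class, and its part in the differences was not tested.

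**Figure D2:**
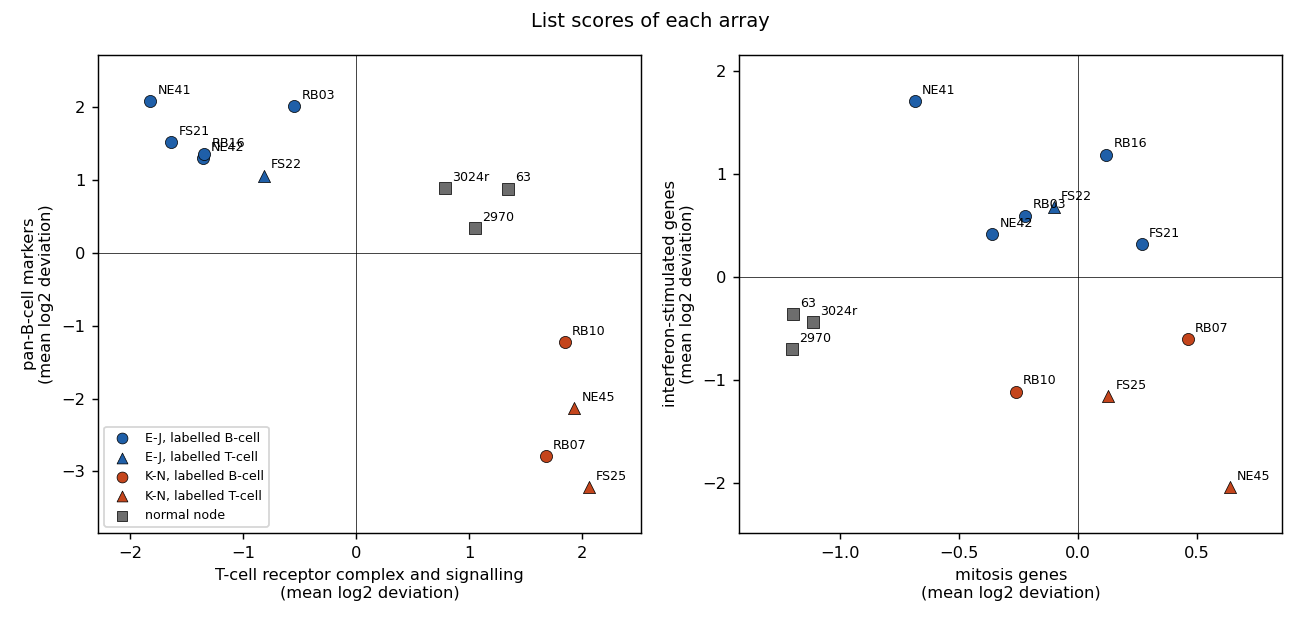
Left, mean log2 deviation of 18 pan-B-cell genes (vertical) against 21 T-cell receptor genes (horizontal) for each of 10 lymphomas and 3 normal nodes, and right, 21 interferon-stimulated genes against 47 mitosis genes, each deviation taken from the mean of the 10 lymphomas. Circles are dogs labelled B-cell and triangles dogs labelled T-cell, and the classes do not overlap on either lineage axis or on the interferon axis, whereas they overlap on the mitosis axis.

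The 15 genes farthest above E-J in K-N were ranked by the measured difference, in which values below 100 count as measured, among separated genes seen at a signal of 100 or more on every K-N array. The first was SLC15A1, which encodes the intestinal peptide transporter PEPT1. SLC15A1 read 9.23, 12.29, 10.46 and 11.28 in RB07, RB10, FS25 and NE45, the order used for K-N values throughout, and 1.78, 2.65 and 5.83 as the lowest, median and highest of E-J. No E-J array reached a signal of 100, so the measured difference of -7.39 ± 1.00 (SE) stands for a K-N level at least 18.03-fold higher. The normal nodes read 1.99 to 7.08, below every K-N array.

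Several of these 15 genes belong to T cells. TRAT1, an adaptor of the T-cell receptor, read 11.81, 13.13, 13.45 and 12.54 in K-N against 2.66, 7.14 and 7.69 in E-J. CD5, a surface inhibitor of T-cell receptor signalling, read 9.06, 9.70, 9.58 and 8.32 against 1.93, 2.71 and 3.74, and its K-N level was at least 5.75-fold higher. THEMIS, needed for thymocyte selection, differed by -6.26 ± 0.83, with 5 of 6 E-J arrays below a signal of 100. TRAT1, CD5 and THEMIS did not overlap between the classes, and for all 3 genes the normal nodes lay above every E-J array. CD28, the main costimulatory receptor, differed by -5.24 ± 0.90 and CD52, a small surface glycoprotein of lymphocytes, by -5.32 ± 0.82. CTSW, a protease of cytotoxic cells, was at least 18.36-fold higher in K-N. The transcription factors GATA3 (-5.03 ± 0.62), LEF1 (-5.00 ± 1.04) and TOX2 (at least 2.69-fold higher in K-N) completed the T-lineage members.

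The other K-N genes had no lineage role that was used to list them. H2BU1, a histone H2B gene, read 10.62, 8.59, 10.51 and 12.15 in K-N and 1.51, 2.85 and 8.13 in E-J, and RB03 at 8.13 came within 0.46 of RB10. GPC4, a heparan sulfate proteoglycan of the cell surface, was at least 8.04-fold higher in K-N and GGT1, an enzyme of glutathione breakdown, at least 4.65-fold. DTHD1 differed by -5.66 ± 0.71, with 5 of 6 E-J arrays below a signal of 100, and the 2 probe sets of LOC491803 by -7.19 and -4.72. For LOC491803 the normal nodes (4.00 to 5.89) fell inside the E-J range of 3.83 to 5.94.

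In the other direction BANK1, a scaffold of B-cell receptor signalling, had the largest measured difference. It read 11.73, 12.28 and 12.95 as the lowest, median and highest of E-J and 3.51, 7.73, 2.95 and 6.20 in K-N, a difference of 7.24 ± 1.14. The normal nodes lay between the classes at 10.16 to 10.68. CD22 (6.35 ± 1.06), CD79B (5.92 ± 1.27) and CD72 (5.69 ± 1.15), all surface proteins of B cells, had a K-N pattern like that of BANK1. In all 4 genes RB10 had the highest and NE45 the second highest K-N signal. Of the 4 K-N arrays, 3 were below a signal of 100 for BANK1, CD79B and CD72 and 2 for CD22.

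PKHD1 encodes fibrocystin, a membrane protein known from the kidney disorder that bears its name. PKHD1 read 9.27, 9.81 and 10.61 in E-J and 4.95, 2.92, 2.63 and 2.26 in K-N, so that its E-J level was at least 9.48-fold higher. The normal nodes, at 3.01 to 6.48, were below a signal of 100 like K-N. The same arrangement held for PHEX, a membrane peptidase known from phosphate handling in bone, with E-J at 9.11 to 10.08, K-N at 3.93 to 6.20 and normal nodes at 4.66 to 5.85, and its E-J level was at least 8.32-fold higher. ASIC5, a relative of acid-sensing ion channels, had E-J at 8.10 to 10.15 and normal nodes at 1.82 to 6.38, and RB07 at 6.70 was the only K-N array above a signal of 100.

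DENND5B, which acts on Rab proteins of membrane traffic, had the smallest SE of the 15, with 11.11 to 11.90 in E-J, 5.99, 6.84, 6.32 and 5.98 in K-N and a difference of 5.34 ± 0.24. LY86 encodes the partner of the Toll-like receptor homologue CD180, and its 2 probe sets differed by 5.28 and 5.03. TLR3, a sensor of double-stranded RNA, read 7.76 to 9.17 in E-J and 2.27, 6.03, 1.46 and 6.08 in K-N, at least 3.72-fold higher in E-J. IL2RA, the alpha chain of the interleukin 2 receptor, was listed among T-cell genes yet read 7.66 to 10.06 in E-J and 3.63, 6.72, 6.48 and 1.66 in K-N. LOC490269 (5.70 ± 0.60), BHLHE41 (4.72 ± 1.37), KLHL14 (at least 14.36-fold higher in E-J) and CCDC141, whose 3 probe sets differed by 2.97 to 6.05, made up the rest.

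**Figure D3:**
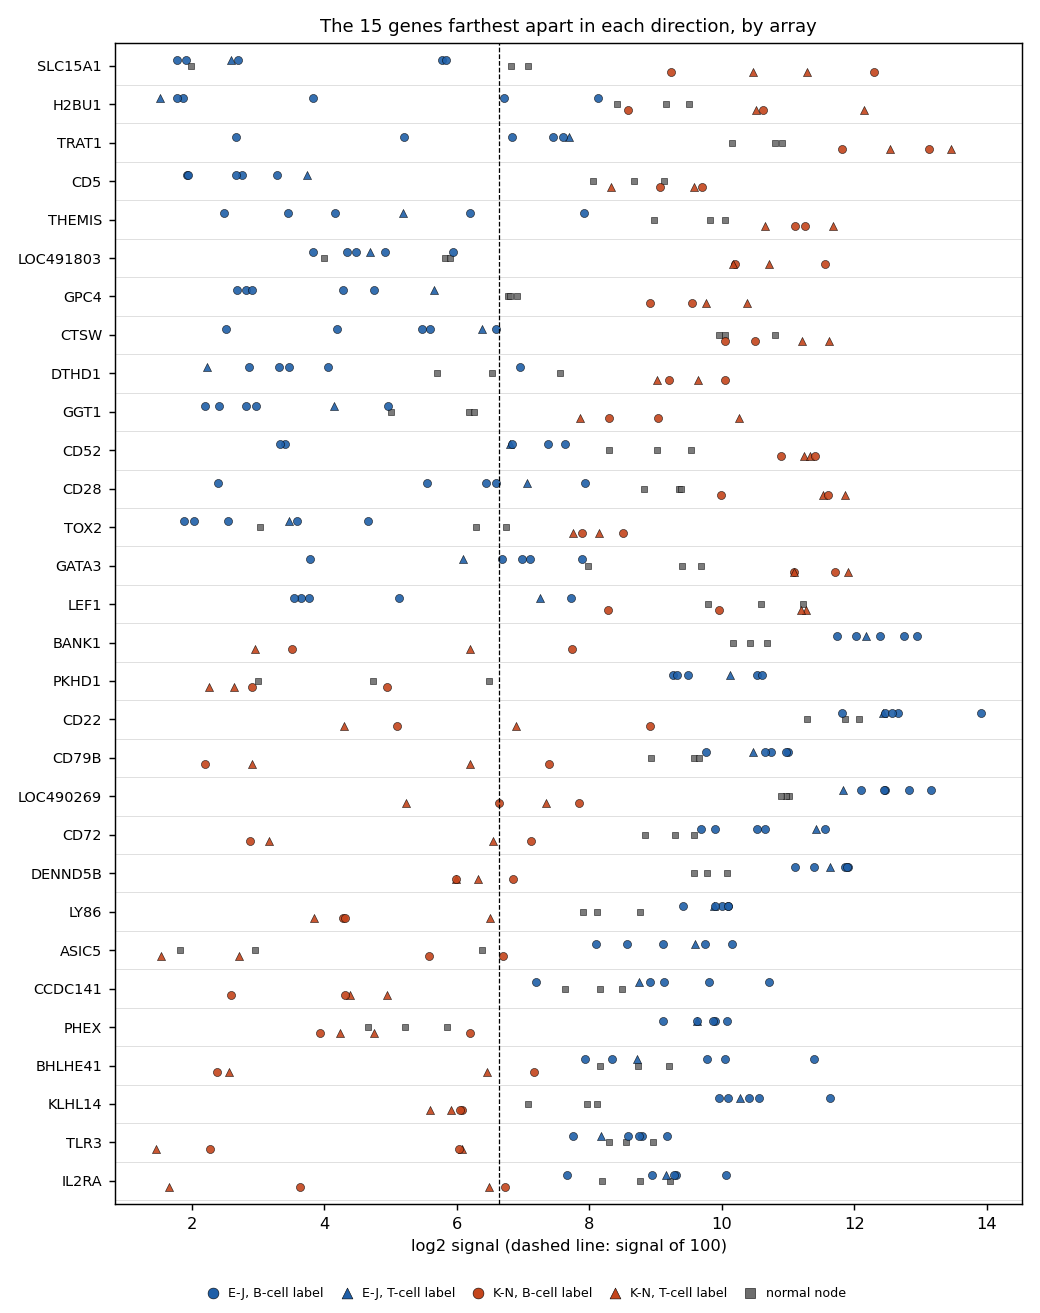
Log2 signal of each lymphoma and of 3 normal nodes for the 15 genes farthest apart in each direction, with E-J in blue, K-N in red, normal nodes in grey, circles for B-cell and triangles for T-cell labels, and a dashed line at a signal of 100. In the upper 15 rows all K-N points lie right of all E-J points, as the selection requires, and for PKHD1 and PHEX the normal nodes lie with K-N below the line.

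A ratio measured on both sides needs no bound, so the separated genes with a signal of at least 100 on all 10 arrays were also looked at, a choice made after the values were seen. There were 329, of which 220 were higher in E-J and 109 in K-N. The widest empty interval between the classes in K-N's favour was that of CD3E, one of the CD3 chains, where 2.82 log2 units parted the highest E-J from the lowest K-N array. IL7R, the receptor of the T-cell survival factor interleukin 7, followed at 2.73 with a difference of -3.98 ± 0.49. PAG1 (-2.96 ± 0.39), a membrane adaptor that binds the inhibitory kinase CSK, RGS10 (-3.13 ± 0.47), a regulator of G protein signalling, and CHCHD7 (-3.69 ± 0.48) were also among the first 10, as was ARAP2 (-2.82 ± 0.16).

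In E-J's favour the widest interval was that of PTPRJ, a receptor phosphatase also called CD148, at 2.81 log2 units with a difference of 4.10 ± 0.33. BTK, the kinase beneath the B-cell receptor, had an interval of 2.63 and ADORA2A, an adenosine receptor, one of 2.38 with a difference of 3.85 ± 0.40. LYN, the first kinase of the B-cell receptor, had the smallest spread of these 20 genes in both classes: 11.97 ± 0.19 (SD, n = 6) in E-J and 9.76 ± 0.17 (SD, n = 4) in K-N. ARHGAP24 (3.06 ± 0.35), BAZ1A (2.75 ± 0.37) and CFAP94 (2.66 ± 0.28) completed the first 10 together with LAMP3, SWAP70 and PIK3AP1, which appear in the lists below.

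Genes were then grouped into lists by their known role, and each list is described by its separated members and by the median difference of its compared members, beside 4.59% and 3.69% separated and a median of 0.06 over all genes. The lists hold lineage genes, whose level helped to make the classes, and none of these counts is independent of the clustering. A list score is the mean over the compared members of the log2 deviation from the 10-lymphoma mean.

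Of 25 pan-B-cell genes, 20 were on the array and 18 were compared. All 18 had a higher mean in E-J, 14 of them separated, and the median difference was 3.48. The list score was 1.06 to 2.09 in E-J, -3.22 to -1.22 in K-N and 0.34 to 0.89 in the normal nodes. CD79A read 9.29 to 11.52 in E-J and 8.06, 8.11, 2.55 and 7.87 in K-N, so FS25 stood far below the other K-N arrays. The list median was 3.35 between B-cell labelled dogs and 4.14 between T-cell labelled dogs, where E-J was FS22 alone. PAX5, the B-cell identity factor, was not compared because the average of its 5 probe sets did not reach the limit, although 2 of these probe sets did and were separated, by 4.77 and 4.45.

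MS4A1, which encodes the therapeutic antibody target CD20, was 1 of the 4 compared pan-B-cell genes that were not separated. It read 12.03 to 12.50 in the 5 B-cell labelled E-J dogs and 4.90 in FS22, labelled T-cell. In K-N it read 10.40 in RB10 and 10.89 in NE45 but 2.89 in RB07 and 6.48 in FS25. RB10 and NE45 were thus in the range of the normal nodes (9.88 to 11.17), and FS22 lay below them although its CD79A, CD79B and CD22 signals were inside the E-J range. The class difference was 3.40 ± 2.24.

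Below the B-cell receptor, 9 of 15 compared genes were separated and higher in E-J and none higher in K-N, with a median of 1.66. BTK differed by 4.01 ± 0.37, PLCG2, the phospholipase that BTK activates, by 3.81 ± 0.45, and PIK3AP1, the adaptor that brings PI3K to the receptor, by 3.18 ± 0.30. PLCG2 read 11.07 to 11.72 in E-J and 8.66, 7.86, 6.52 and 7.75 in K-N, with normal nodes at 10.56 to 11.13. The kinases LYN and SYK, the phosphatase PTPN6 and the adaptor BCL10 were among the 9.

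Germinal-centre genes went both ways. Of 13 compared, 5 were separated and higher in E-J (MEF2C, LMO2, ELL3, HHEX and SWAP70) and 1, BCL6, was higher in K-N, with a median of 1.03. BCL6, the repressor that defines the germinal-centre state and also acts in follicular helper T cells, read 7.32, 8.47 and 8.85 in E-J and 12.26, 11.01, 11.34 and 11.15 in K-N. Its difference was -3.11 ± 0.38, and the normal nodes, at 10.71 to 11.17, lay with K-N. SWAP70, a signalling protein of activated B cells, read 9.82 to 10.62 in E-J and 6.96 to 7.93 in K-N. When genes below the signal limit were included, the median of 18 germinal-centre genes was -0.31.

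Plasma-cell genes differed less, with 2 of 10 separated (FKBP11 and PDIA4, both of the endoplasmic reticulum) and a median of 0.44. JCHAIN, which joins secreted antibodies, read 6.77 to 9.94 in E-J and 3.43 to 8.14 in K-N. All 10 lymphomas were below the normal nodes, at 10.66 to 11.35.

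Of 27 T-cell receptor genes, 23 were on the array and 21 compared, and 17 of these were separated and higher in K-N, with none higher in E-J and a median of -2.89. The score was -1.82 to -0.55 in E-J, 1.68 to 2.06 in K-N and 0.79 to 1.34 in the normal nodes, so K-N was above and E-J below every normal node. CD3E differed by -4.17 ± 0.33, CD3G by -3.42 ± 0.50 and CD3D by -1.99 ± 0.38. CD3D stayed bright in E-J, at 10.39 to 12.56 against 13.07, 14.20, 13.80 and 13.69 in K-N. CD2, an adhesion receptor, read 8.69 to 10.98 in E-J and 12.39 to 13.01 in K-N, and LCK 6.02 to 7.29 and 9.21 to 10.19. CD247, the zeta chain, was lowest in FS22, at 4.95.

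Among 14 compared T-cell subset genes, 7 were separated and higher in K-N and 2 higher in E-J. CD4, the coreceptor of helper T cells, read 6.79 to 8.10 in E-J and 10.46, 10.43, 9.98 and 9.81 in K-N. CD8A did not reach the signal limit on either of its 2 probe sets, and its average was 3.99 to 6.72 in E-J and 4.37 to 6.74 in K-N. ICOS, CD40LG, IL7R, CCR7, GATA3 and CD27 were the other 6. The pair higher in E-J was IL2RA and the chemokine receptor CCR6 (at least 2.80-fold higher). CCR4, a chemokine receptor of some helper T cells, overlapped: E-J ran from 1.27 in FS22 to 10.13, and K-N from 9.21 to 10.91.

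Transcription factors of lymphocytes had a median of -0.12 over 22 genes, which ran from -0.28 without RB10 to 0.016 without RB07 and was also positive without NE42 (0.014). They had 7 separated toward K-N (TCF7, LEF1, IKZF2, TOX, TOX2, SATB1 and MYB) and 2 toward E-J (BCL11A and TCF4). TCF7, an effector of early T-cell development, read 2.79 to 5.39 in E-J and 9.28, 8.34, 9.06 and 8.79 in K-N, and its 2 probe sets differed by -4.91 and -3.89, the latter with overlap. Of 12 cytotoxic and NK-cell genes only CTSW and CRTAM (at least 5.44-fold) were separated, both higher in K-N. KLRD1, an NK-cell receptor, overlapped (3.46 to 8.48 in E-J, 1.74 to 7.04 in K-N), and PRF1 and NCR1, which encode perforin and an NK receptor, each on 1 probe set, did not reach the signal limit. CCR9, a gut and thymus homing receptor, was the 1 separated gene of 2 compared thymocyte genes, at 2.69 to 6.44 in E-J and 7.30, 7.37, 9.65 and 10.29 in K-N, at least 4.02-fold higher. DNTT, the other, which encodes terminal transferase, read 2.07 to 10.07 in E-J and 1.16 to 3.84 in K-N.

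**Figure D4:**
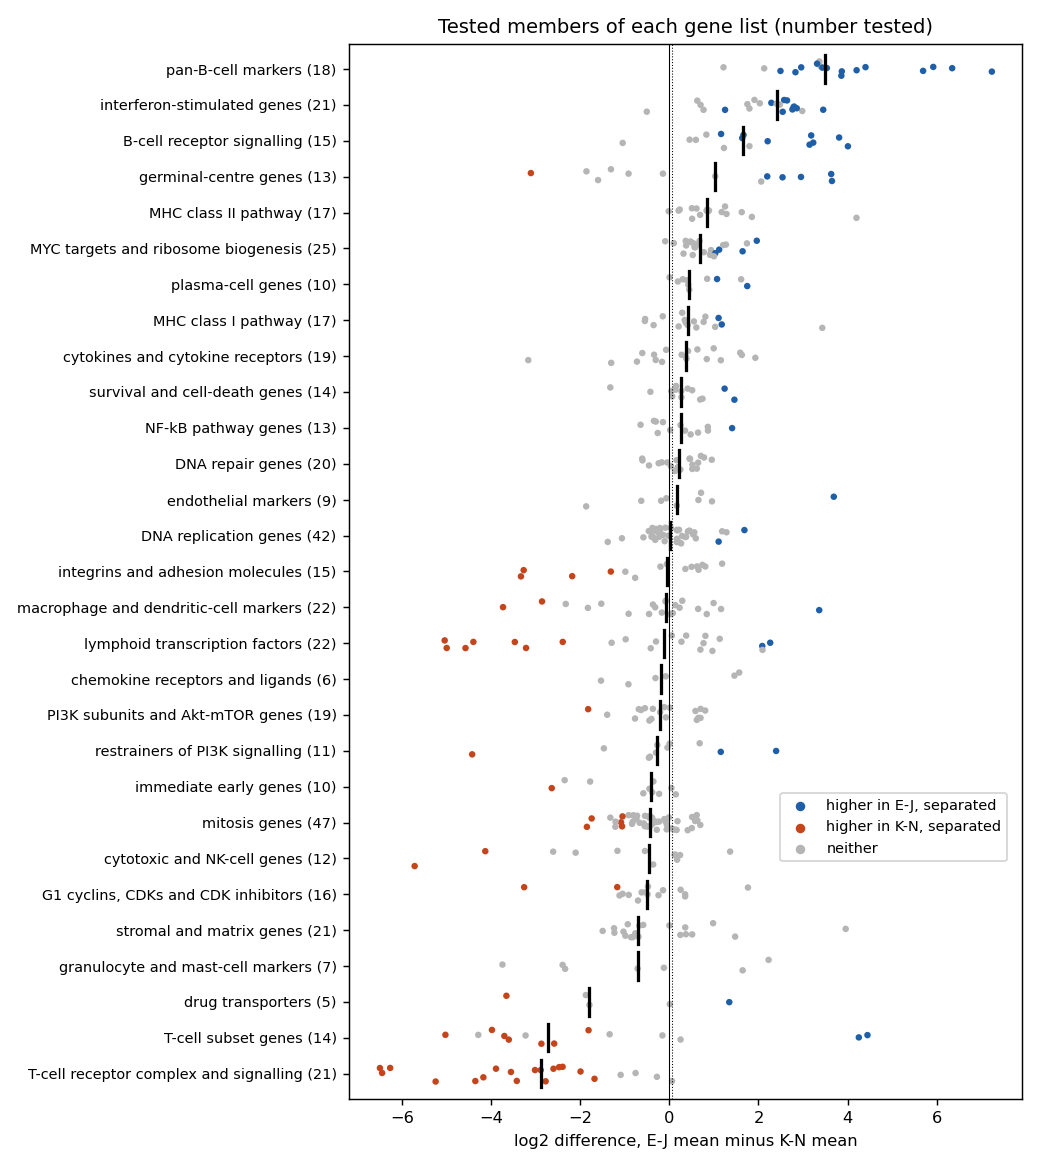
Each point is the difference of 1 gene (E-J mean minus K-N mean, log2), in rows for 29 gene lists with the number of compared genes in brackets, blue or red where the gene was separated. The black bar is the list median and the dotted line the median of all 8567 genes (0.06): pan-B-cell (3.48) and interferon-stimulated genes (2.41) lie farthest right and T-cell receptor genes (-2.89) farthest left.

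Outside the lineage programmes, the interferon-stimulated genes, which infected or alerted cells switch on, had the largest median. Of 30 listed, 21 were compared, 20 had a higher mean in E-J and 10 were separated (ISG15, IFI44, IFI44L, OAS1, OAS2, STAT2, IRF7, HERC5, HERC6 and XAF1), with a median of 2.41. ISG15, a ubiquitin-like protein, read 8.84 as the lowest and 10.70 as the median of E-J and 8.59, 7.74, 7.21 and 5.43 in K-N, and only 0.24 log2 units parted the classes. HERC5, the ligase that attaches ISG15, read 8.56 to 11.11 in E-J and 7.12, 6.89, 6.86 and 6.38 in K-N. MX1, an antiviral GTPase, overlapped because FS25 reached 9.78. The list score was 0.32 to 1.71 in E-J, -2.04 to -0.60 in K-N and -0.70 to -0.36 in the normal nodes, and E-J lay above every normal node. The median was 2.24 between dogs labelled B-cell and 2.31 between dogs labelled T-cell, where E-J was FS22 alone.

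Antigen presentation genes were mostly higher in E-J but overlapped. For MHC class II, 16 of 17 compared genes had a higher mean in E-J (median 0.84) and none was separated. DLA-DOB, a chaperone of B cells, differed most, by 4.20 ± 1.41, and DLA-DMB, the peptide loader, by 1.85 ± 0.50. For MHC class I the proteasome subunits PSMB8 (1.18 ± 0.14) and PSMB10 (1.10 ± 0.34), which are also interferon-inducible, were the 2 separated of 17. PSMB10 was separated only as an average, and its 2 probe sets (1.42 and 0.79) both overlapped. The difference of the class I heavy chain gene DLA88 is uncertain, because its 2 probe sets gave -0.24 and 7.10.

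The cell division lists had medians nearer 0 than that of the interferon-stimulated genes. Of 47 mitosis genes 5 were separated, all higher in K-N (KIF14, KIF15, TOP2A, NUF2 and SPC25), and 11 had a higher mean in E-J, with a median of -0.42. SPC25, a kinetochore subunit, read 9.81 as the median and 10.36 as the highest of E-J and 11.74, 11.34, 11.63 and 11.60 in K-N, and normal nodes read 7.68 to 8.07. DNA replication genes had a median of 0.00 over 42 genes (-0.14 without FS21 to 0.19 without NE45), with POLE2 and RFC2 separated and higher in E-J. Of 16 G1 cyclins, CDKs and CDK inhibitors, 4 had a higher mean in E-J, and the median was -0.51. In this list 2 genes were separated, CDKN2C and CDK2, both higher in K-N. The cell cycle inhibitor CDKN2C (p18) read 3.38 to 7.94 in E-J and 10.20, 9.43, 9.71 and 10.21 in K-N, and CDK2 6.72 to 7.30 and 7.46 to 8.62. No DNA repair gene of 20 was separated. In MYC targets and ribosome biogenesis, 24 of 25 genes had a higher mean in E-J, with 4 separated (NOP2, NOLC1, NME1 and ODC1) and a median of 0.68. Of the 2 probe sets of NME1, 1 was separated (2.72) and the other overlapped (0.56). ODC1, the first enzyme of polyamine synthesis, read 13.07 to 14.21 in E-J and 11.79, 12.08, 11.13 and 11.77 in K-N.

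PI3K was the target of the trial drug, and its subunits and the Akt-mTOR genes had a median of -0.21 over 19 genes with 1 separated. This median ran from -0.42 without RB07 to -0.052 without FS25, and it was 0.091 between B-cell labelled dogs over the same genes. PIK3CG, the gamma catalytic subunit of leukocytes, read 7.41, 8.45 and 9.07 in E-J and 10.17, 10.24, 10.07 and 10.57 in K-N, a difference of -1.82 ± 0.27. The normal nodes were above both, at 10.82 to 11.48. Of the other catalytic subunits, PIK3CD overlapped (-0.77 ± 0.61), and PIK3CA did not overlap but missed the 2-fold limit (0.80 ± 0.15). Among 11 restrainers of the pathway, INPP4B, a phosphatase that removes a PI3K product, read 5.37, 5.89 and 6.24 in E-J and 10.32, 9.74, 10.39 and 10.62 in K-N. These are averages of 3 probe sets, of which 2 were separated with differences of -5.47 and -5.38 and the third overlapped (-2.43). The normal nodes lay between at 7.69 to 8.81. The stress gene SESN1 (2.40 ± 0.34) and the transcription factor FOXO3 (1.15 ± 0.35) were separated and higher in E-J.

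Signalling, survival and adhesion lists each held a few separated genes. JUN, a subunit of AP-1, was the 1 of 10 immediate early genes, at 8.33 to 10.05 in E-J and 12.48, 11.18, 10.83 and 11.80 in K-N. REL, an NF-kB subunit of lymphocytes, was the 1 of 13 NF-kB genes (1.41 ± 0.30), and CASP8 (1.24 ± 0.13) and FADD (1.46 ± 0.44), partners in death receptor signalling, were the 2 of 14 survival genes, all 3 higher in E-J. FADD was separated only as the average of 2 probe sets, which both overlapped. It was below a signal of 100 on 3 of 4 K-N arrays, and its fold with every signal raised to 100 was 1.56. Of 15 integrins and adhesion molecules, ITGB7, ITGA5, ITGA6 and ITGAL were separated and higher in K-N. ITGA6 was separated only as the average of 4 probe sets, which all overlapped, and ITGA5 on 1 of its 2 probe sets. ITGB7, a subunit of the gut-homing integrin, read 7.91 to 9.80 in E-J and 12.22, 12.04, 12.44 and 12.52 in K-N, above the normal nodes at 10.52 to 10.98. None of 6 chemokine genes or 19 cytokine and receptor genes was separated. These lists left out the receptors CCR6, CCR7, CCR9, IL2RA and IL7R, which were separated and are described above with the T-cell subset and thymocyte genes.

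Of 5 compared drug transporters, ABCC5 was separated and higher in K-N and ABCC1 separated and higher in E-J (1.35 ± 0.40). The 4 probe sets of ABCC5 differed by -4.72 to -2.43, and 3 of them were separated while that of -2.43 overlapped. Of the 2 probe sets of ABCC1, 1 was separated (1.75) and the other overlapped (0.94). ABCB1, the multidrug transporter, read 2.55, 6.31 and 6.96 in E-J and 8.12, 6.66, 6.84 and 6.84 in K-N, mostly near a signal of 100, and overlapped.

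**Figure D5:**
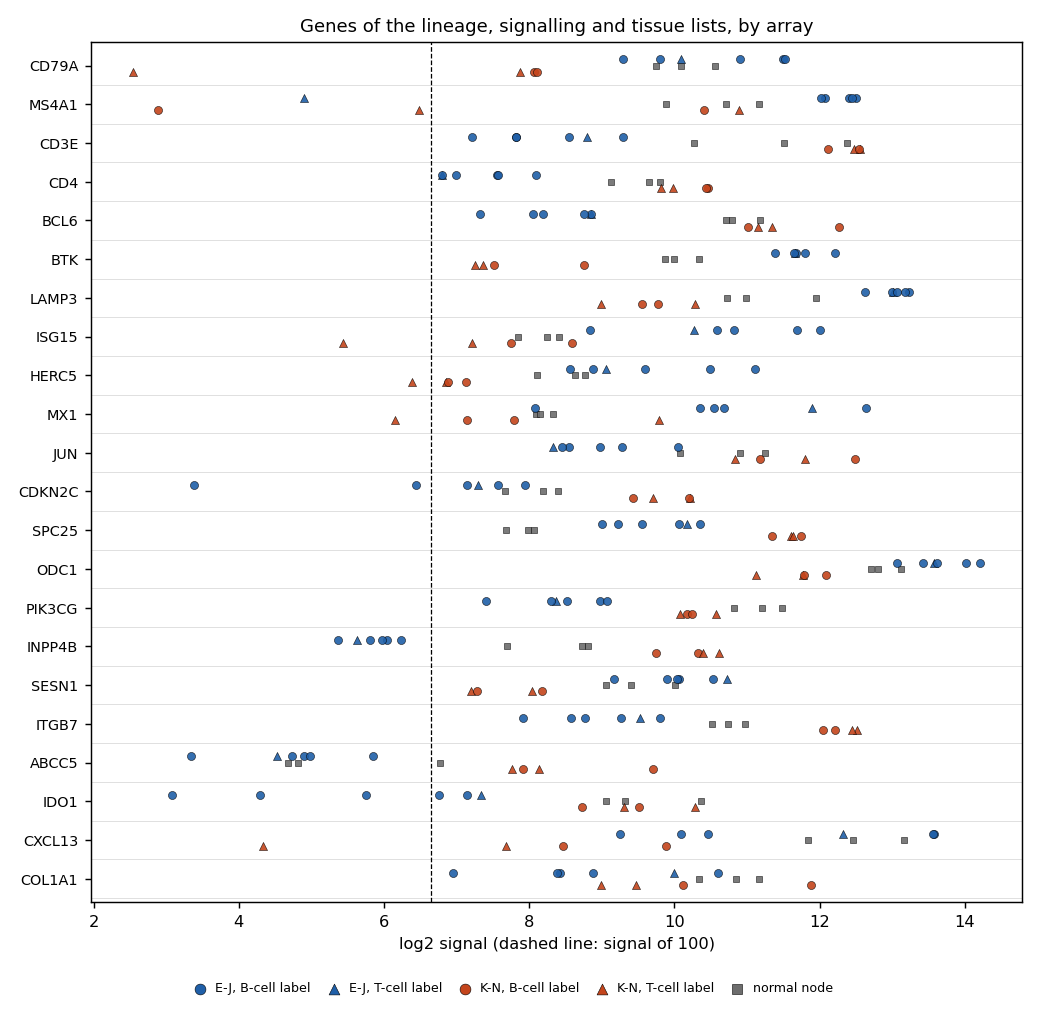
Log2 signal of each lymphoma and of 3 normal nodes for 22 genes of the lineage, signalling and tissue lists, with E-J in blue, K-N in red, normal nodes in grey, circles for B-cell and triangles for T-cell labels, and a dashed line at a signal of 100. MS4A1 is the gene whose 2 low K-N points, 2 high K-N points and low E-J triangle cut across the classes, and in CXCL13, COL1A1 and MX1 the classes also overlap.

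Markers of other cells of the node differed less between the classes than between lymphomas and normal nodes. The macrophage and dendritic-cell score was -0.64 to 0.59 in E-J, -0.39 to 0.49 in K-N and 2.25 to 2.57 in the normal nodes, with a median difference of -0.083 over 22 genes that ran from -0.27 without NE45 to 0.21 without RB07. The stromal score was -0.85 to 0.70, -0.66 to 1.27 and 1.98 to 2.29, and the endothelial score -0.99 to 0.85, -0.82 to 0.53 and 2.13 to 2.84. The stromal median was -0.69 for the classes (-0.30 without RB07), -1.48 between B-cell labelled dogs and 0.94 between T-cell labelled dogs, with no gene of 21 separated. In the T-cell labelled comparison E-J was FS22 alone, whose stromal score of 0.70 was the highest of E-J. The granulocyte score was -1.31 to 0.93 in E-J and -1.05 to 1.73 in K-N. Of the 2 red-cell genes compared, ALAS2, a haem synthesis enzyme, overlapped at 6.37 to 8.41 and 6.48 to 9.21. The stromal gene DCN, on 1 probe set, did not reach the signal limit. The macrophage gene CD163 and the stromal gene COL3A1 did not reach it as averages of 4 and 5 probe sets, although 1 and 3 of these did and overlapped between the classes. The part of these cells in the class differences was not tested.

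Within those lists 4 genes were separated. LAMP3, a lysosomal protein of mature dendritic cells, read 12.62, 13.03 and 13.23 in E-J and 9.55, 9.78, 8.98 and 10.29 in K-N, with normal nodes between at 10.72 to 11.95 and a difference of 3.36 ± 0.28. IDO1, which breaks down tryptophan, read 3.08 to 7.33 in E-J and 8.73, 9.52, 10.28 and 9.31 in K-N. FCGR1A, a high-affinity antibody receptor, was at least 1.60-fold higher in K-N and PROX1, the factor of lymphatic vessels, at least 2.73-fold higher in E-J. CXCL13, the chemokine that draws B cells into follicles, overlapped at 9.26 to 13.58 in E-J and 4.33 to 9.88 in K-N.

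For most separated genes the mean of the normal nodes lay between the class means. Separated genes were chosen for class means far apart, which makes a middle position likelier. The share over all compared genes was not counted, so these counts are descriptive only. The normal mean lay between the class means for 317 of the 393 genes higher in E-J and for 240 of the 316 higher in K-N. It lay above both class means for 45 and 52 genes and below both for 31 and 24. The difference had the same sign between T-cell labelled dogs for all 393 and 316 genes, which non-overlap requires. Between B-cell labelled dogs it was at least 2-fold for 346 and 297. The genes were chosen for a 2-fold difference on arrays that included these dogs, so this count was largely built in. Median differences within the 3 clinics were 1.78 to 1.82 for genes higher in E-J and -2.29 to -2.13 for genes higher in K-N. Non-overlap fixes the sign of these too. The gene lists were not filtered by overlap. In FS, NE and RB the pan-B-cell median was 3.77, 3.75 and 3.20 and the T-cell receptor median -2.77, -3.51 and -2.32. Some other lists changed sign between clinics, among them DNA replication (0.50, -0.85 and 0.33) and stromal genes (1.16, 0.04 and -1.27).

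The labels that did not enter the clustering were tested against class. B-cell lymphoma was the label of 5 of 6 E-J and 2 of 4 K-N dogs (Fisher's exact test, two-sided, p = 0.5, adjusted over 3 labels 0.75). Boxers were 0 of 6 E-J dogs against 3 of 4 K-N dogs (p = 0.0333 by the same exact test, adjusted 0.1). All Boxers were in K-N, the most uneven split that these counts allow, so the test could give no smaller p. The adjusted p therefore does not decide whether breed and class were linked. The Boxer split was chosen with the labels in view, and with the Boxer mix counted as a Boxer it was 1 of 6 and 3 of 4 (exact p = 0.19). Clinic did not differ detectably between the classes (exact p = 1).

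The diagnosis on the label was also tested gene by gene with class held fixed, which asks what B-cell and T-cell labelled dogs of one class differed in. With limma and Benjamini-Hochberg adjustment, 0 of 8567 genes (0%) passed an adjusted p of 0.05, and 281 (3.28%) had an unadjusted p under 0.05. The smallest p values went to DPP4 (CD26), a peptidase of the T-cell surface, higher in B-cell labelled dogs by 2.36 ± 0.42 (limma adjusted p = 0.9999), and PRLR, the prolactin receptor, higher by 4.18 ± 0.77. DPP4 read 11.35 and 11.87 in RB07 and RB10, 8.76 and 9.69 in FS25 and NE45, 5.29 to 7.13 in the B-cell labelled E-J dogs and 3.96 in FS22. Toward the T-cell label the first were LRG1 (-2.34 ± 0.48) and UCHL1 (-3.15 ± 0.75), a ubiquitin hydrolase. A term for a label difference that itself differs between the classes, added after the data were seen, passed for 3 genes (0.035%), in which FS22, the single T-cell labelled E-J dog, stood apart from the rest of its class. On simulated arrays of the same size the test found 98 of 200 genes changed by 2 on the log2 scale and 170 of 200 changed by 4, so a label difference of the smaller size could be missed with 3 T-cell labelled dogs.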

How the data were processed

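Total RNA of 14 lymph node samples had been amplified and hybridised, 1 array per sample, to the GeneChip Canine Genome V2.0 Array. The authors summarised the spots of each probe set with MAS 5.0 and deposited probe set intensities on a linear scale, scaled so that a trimmed mean of each array was 500. No other scaling was applied, the spread of signals was compared between arrays, and the number of dogs limits the precision. Which hybridisation batch an array belonged to is not given in the sources used here, and detection calls and RNA-Seq were not used.

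Intensities were taken to log2. Of 43035 probe sets, 29264 had exactly 1 symbol in the platform annotation, 439 had several and 13332 were not listed. The 29254 with 1 symbol that were no control probe sets were used, and the log2 values of probe sets with the same symbol were averaged into 15115 genes (8254 with more than 1 probe set). Genes at 100 or more on at least 3 lymphoma arrays were compared. One normal node of a dog sampled on both sides was left out for its low 5′ signals. Class differences carry SE from the 2 class SDs and no test. Diagnosis labels were tested with limma 3.58.1 in R 4.3.3 (a model with class and label, Benjamini-Hochberg over all genes), checked on simulated data, and labels with Fisher's exact test in scipy 1.17.1. Genes were named by rule: 15 per direction, up to 4 per list, the cell type markers and up to 5 per direction in the label test, and other members of a count are named where their separation was seen. The classes, lists and rules were chosen with earlier results of these data known.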

Additional observations from a re-analysis of the deposited data

Results flagged for a closer look

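Within the 6 E-J and the 4 K-N arrays, each named gene, list score and quality measure was checked for a single array far from the rest, and 24 of 372 checks (6.45%) found one, where chance gives about 5%. All values are log2 signals unless stated, and none of the gaps was given a cause.

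FS22, labelled T-cell, was far from the other E-J arrays in 4 genes. Its MS4A1 signal of 4.90 lay below the next E-J value of 12.03, its CRTAM signal of 1.46 below 4.92 and its CCNE1 signal of 8.28 below 8.94. Its signal of MARCO, a scavenger receptor of macrophages, was 10.73, above the next value of 7.98.

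NE41 was lowest in E-J for LY86 (9.41), RASGRP3 (8.26) and CCR2 (3.35) and highest for KLHL14 (11.64) and CCR6 (9.14). RB16 was lowest for DLA-DMA (9.78), CDKN2C (3.38), LCK (6.02) and CD14 (6.97). NE42 was lowest for CEACAM1 (2.07) and PECAM1 (8.67) and for the germinal-centre score (a mean log2 deviation of -0.68), and it had the highest GAPDH 3′ to 5′ ratio of E-J, 8.61. RB03 was highest for MPO (7.01), a neutrophil enzyme, and FANCI (8.08).

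In K-N, FS25 stood below the other 3 arrays in CD79A (2.55 against 7.87 or more). RB10 stood below them in EGR1 (4.99) and in the score of lymphoid transcription factors (0.0908), and above them in the germinal-centre score (-0.29). RB07 was highest in ABCB1 (8.12).

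The difference between B-cell and T-cell labelled dogs itself differed between the classes for 3 genes, by a label-by-class term in limma that was added after the data were seen. This term, the K-N difference minus the E-J difference, was -8.94 for HSF5 (adjusted p = 0.00731), -6.07 for CLCA4 (adjusted p = 0.0232) and -5.67 for NRDE2 (adjusted p = 0.0489). FS22 was the single T-cell labelled E-J array, and it read 1.00, 0.92 and 1.67 for these genes against 5.88 to 7.41 in the other E-J arrays, values that lie mostly near or below a signal of 100. HSF5 also differed by label within K-N, at 3.06 in RB07 and 2.31 in RB10 against 6.05 in FS25 and 5.98 in NE45. The K-N arrays read 5.33 to 6.33 for CLCA4 and 6.05 to 6.71 for NRDE2.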

How the results depend on the processing

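The counts of 393 and 316 separated genes stayed within 1.5 times under 2 other scalings, 2 other ways of joining probe sets, a pseudocount, a floor, 2 other filters and clinic as a block. Leaving out each array gave 402 to 506 and 329 to 418. These lie above the full counts, and fewer arrays make non-overlap easier to reach. The counts became 157 and 180 with a 4-fold minimum, 952 and 854 with overlap allowed, and 656 and 502 with the 5 B-cell E-J against the 2 T-cell K-N dogs. Of 609 list medians recomputed, 567 moved by less than the SD of the list score between dogs, and all 58 under quantile normalization or median centring did. In 32 of the 609 the sign changed, 1 of them under those scalings (DNA replication genes, -0.0054). The cause of the other moves was not tested. With log2(signal + 50) the medians were 2.75 for pan-B-cell, -2.34 for T-cell receptor, 1.73 for interferon-stimulated genes and -0.83 for drug transporters. With signals raised to at least 100 they were 2.61, -2.44, 1.62 and -0.39, and -2.20 for T-cell subset genes. The mean of linear signals gave -0.41 for integrins. The probe set with the highest mean gave 1.48 for germinal-centre genes, -0.55 for integrins and -0.0497 for cytokines, reversing the last. Without a filter the medians were -0.31 (germinal centre, reversed), -0.89 (T-cell subset), -0.0907 (cytokines, reversed) and -1.24 (drug transporters), and with 100 on 6 or more arrays -1.63 (cytotoxic), -2.37 (granulocyte) and -0.89 (drug transporters). Among B-cell labelled dogs alone, with genes chosen anew on those arrays, they were 1.28 (B-cell receptor signalling), 0.63 (plasma cell), 0.40 (lymphoid transcription factors, reversed), -1.33 (cytotoxic), -2.94 (granulocyte), -1.65 (stromal), -0.32 (integrins) and -0.82 (drug transporters). The 5 B-cell E-J against the 2 T-cell K-N dogs gave 2.21 (B-cell receptor signalling), -1.87 (granulocyte), -0.45 (PI3K), 0.23 (integrins, reversed) and -0.57 (drug transporters). Leaving out each array gave 1.39 to 2.01 for B-cell receptor signalling, 0.39 to 0.55 for plasma-cell, -3.27 to -2.52 for T-cell subset, -2.02 to -0.25 for cytotoxic and -2.03 to -1.24 for drug transporter genes. It gave -0.21 to 0.28 for integrins, positive at its highest without RB16, and -0.0551 to 0.41 for NF-kB genes, negative without RB10. The cytotoxic median of -2.02 arose without NE42. Chemokine genes ran from -0.53 to 0.13 and endothelial genes from -0.067 to 0.61, so that these signs also rested on single arrays. The label test found 0 genes under every alternative, a per-gene Welch test that ignored class included (0 genes, 295 at an unadjusted p under 0.05), except without FS22, where 1 gene, HECTD2, passed (limma adjusted p = 0.0216), so the range over left-out arrays was 0 to 1. The exact p for breed was 0.19 with the mix counted as a Boxer. No paired analysis was possible because each dog was measured on 1 array and belonged to 1 class.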

Other observations

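Probe sets without a single gene symbol separated the classes about as often as named genes did. Of 6837 that reached a signal of 100 on at least 3 lymphoma arrays, 533 (7.8%) were separated, 228 higher in E-J and 305 higher in K-N, and they are not named here.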
